A study of Mus musculus with 12 samples.

Results

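Aminoacyl-tRNA synthetases are the enzymes that join each amino acid to its transfer RNA, and they were followed here as a gene family in mouse embryonic fibroblasts with and without huntingtin. The members were chosen by name alone: a gene symbol made of the letter of an amino acid and "ars", with or without a 1, 2, l, a or b, together with Eprs and Tarsl2. This gave 38 genes of the 55487 in the count tables. The rule uses the symbols and no measured value.

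Each synthetase recognises 1 amino acid, activates it with ATP and transfers it to the matching transfer RNA, and the charged transfer RNA then feeds the ribosome. Mammalian cells keep separate enzymes for the cytosol and for the mitochondrion, the latter encoded in the nucleus and imported to serve translation of the mitochondrial genome. Several cytosolic synthetases sit together in a multi-synthetase complex held by scaffold proteins, and many cytosolic synthetase genes are known targets of ATF4, a transcription factor induced when amino acids run short or the endoplasmic reticulum is stressed. Of the 38 members, 19 encode cytosolic enzymes, 17 encode mitochondrial enzymes and 2, Gars (glycine) and Kars (lysine), encode the enzyme of both compartments. Among the cytosolic genes, 7 (Eprs, Iars, Lars, Mars, Qars, Rars and Dars) belong to the complex and 12 lie outside it. Kars also sits in the complex but is counted here with the genes of both compartments.

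All cells were primary fibroblasts of E13.5 embryos carrying floxed Htt alleles (HTTfl/fl). HTT-deleted cells received a lentivirus with Cre recombinase and GFP, control cells received a lentivirus with an H2B-eGFP fusion, and both were collected 7 days later. From each suspension, 1 part in 15 gave total RNA and the remainder gave ribosome-associated RNA, the RNA recovered with a purified ribosome pellet. There were 3 libraries in each of the 4 groups. Effects of Cre itself and of Htt loss cannot be told apart, because the control vector carried no Cre. Replicates are separate primary cultures or separate passages per the labels, so p-values measure the spread between these.

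Gene counts per library ran from 16789356 to 30571501, and synthetases took 0.286 to 0.350% of them. Htt was at 45.8 to 64.6 CPM (the gene's reads scaled to the size of its library) in total control RNA and 10.6 to 15.5 CPM in total HTT-deleted RNA, and at 20.1 to 32.0 against 3.98 to 12.8 CPM in ribosome-associated RNA, so the HTT-deleted libraries kept some Htt signal. The 10 fibroblast markers had a summed level of 24168 to 41842 CPM and the 18 macrophage markers one of 807 to 8607 CPM. Epithelial or mesothelial markers summed to 6.34 to 26.7 CPM, endothelial ones to 13.9 to 30.6 CPM and neural ones to 79.0 to 224 CPM. Of all these markers, only the neural Snap25 and Olig2 were under 3 counts in each library. Total HTT-deleted replicate 1 stood apart: against the median of the 6 total libraries, its coding transcripts under 1000 bases were 1.57 higher than those over 5000 bases on the log2 scale, and this gap was -0.08 to 0.03 in the 5 other total libraries. Among ribosome-associated libraries, control replicate 1 had a gap of 0.33 and the 5 others -0.08 to 0.03. For results that turn on these libraries, values without them are given as well.

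Levels per transcript length separated the cytosolic from the mitochondrial enzymes. In total control RNA, the 19 cytosolic genes had a median of 30.9 CPM per kilobase of the principal transcript (RPKM), the 2 genes for both compartments were at 48.4 and 75.2 RPKM, and the 17 mitochondrial genes had a median of 4.93 RPKM. The highest were Nars, the asparagine enzyme, at 89.6 ± 3.06 RPKM, Lars2, the mitochondrial leucine enzyme, at 76.2 ± 27.7 RPKM, Gars at 75.2 ± 2.91 RPKM and Sars, the serine enzyme, at 62.6 ± 5.11 RPKM (SD, n = 3 each). The range of Lars2 overlapped those of both Nars and Gars, which did not overlap each other, and Lars2 was the one mitochondrial gene among the cytosolic levels. The lowest were Pars2 (mitochondrial proline) at 2.45 ± 0.385 RPKM, Tarsl2, a second cytosolic threonine enzyme, at 2.23 ± 0.277 RPKM, Nars2 at 1.71 ± 0.132 RPKM and Mars2 at 1.05 ± 0.221 RPKM (SD, n = 3 each). Tarsl2 was the one cytosolic gene at a mitochondrial level, since the next lowest cytosolic gene, Farsb, stood at 20.2 ± 0.491 RPKM (SD, n = 3). The low place of Mars2 depends on its annotated principal transcript of 11294 bases. Before division by length, its mean in total control RNA was 11.8 CPM, beside 5.38 for Pars2, 6.46 for Nars2 and 7.11 for Tarsl2.

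**Figure D1:**
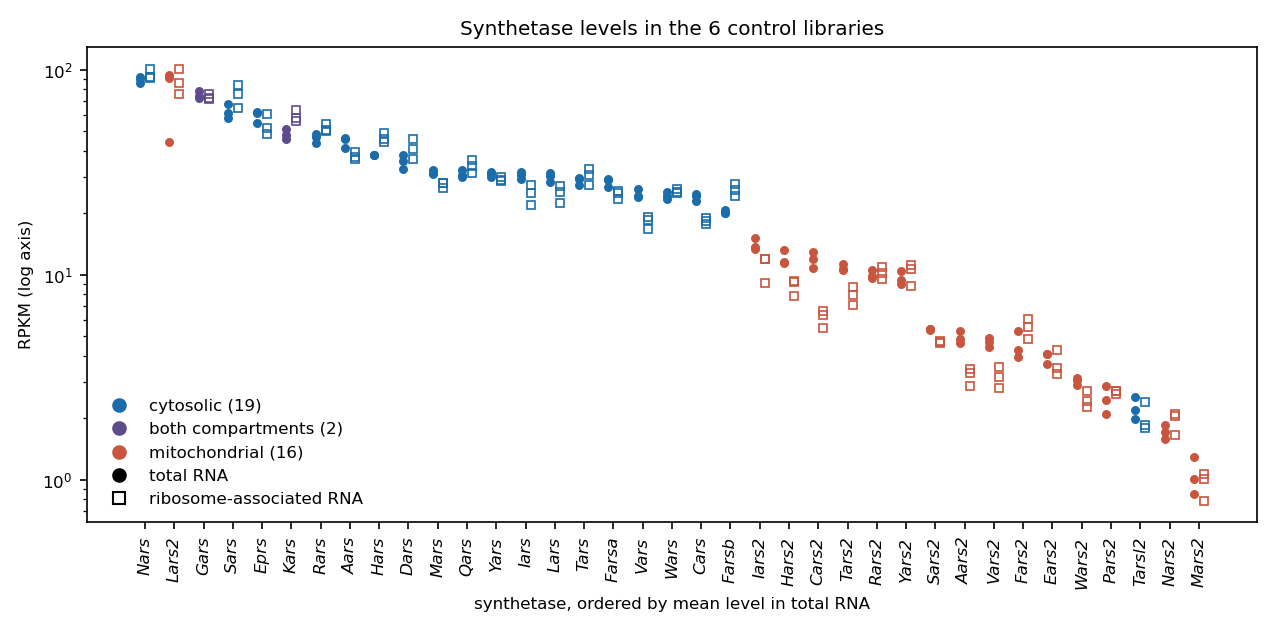
RPKM of 37 of the 38 synthetases on a log axis in the 3 total (circles) and 3 ribosome-associated (squares) control libraries, 1 point per library, ordered by mean level in total RNA. The cytosolic genes lie above the mitochondrial ones apart from Lars2, at 76.2 RPKM on average, and Tarsl2, at 2.23 RPKM.

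Between these ends many neighbours in the order did not differ beyond their spread. Eprs, the fused glutamate and proline enzyme, Kars, Rars and Aars followed at 59.5, 48.4, 46.4 and 44.6 RPKM on average, and the complex members Mars, Qars, Iars and Lars shared 30.0 to 31.5 RPKM with Yars, with overlapping ranges from each gene to the next. Tars, Farsa, Vars, Wars and Cars lay at 23.8 to 28.8 RPKM, and Hars and Dars at 38.3 and 35.6 RPKM. Among the mitochondrial genes, Iars2, Hars2, Cars2, Tars2, Rars2 and Yars2 lay between 9.60 and 14.0 RPKM. Sars2, Aars2, Vars2, Fars2, Ears2 and Wars2 lay between 3.02 and 5.42 RPKM. Cytosolic and mitochondrial genes were paired by matching symbols, as Lars with Lars2, which gave 14 pairs. Glutamate, proline and phenylalanine also have genes of both kinds but were left out, because their symbols do not match in this way. The cytosolic gene was the higher in 13 of the 14 pairs, with a median ratio of 4.94 over the 14. The exception was leucine, where Lars stood at 0.393 times the level of Lars2.

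Promoter sequences were examined because the cytosolic family is known for sharing ATF4 control. RefSeq promoter windows (GRCm38.p6, 250 bases before to 50 after the gene start) were found for 28 of the 38 members, 12 cytosolic, 2 of both compartments and 14 mitochondrial. Cars, Hars, Hars2, Lars, Nars, Pars2, Rars, Vars and Wars were among those with none. The letters TGATGNAAN, the composite element bound by ATF4 with a C/EBP partner, were searched on both strands. They occurred in 4 of the 12 cytosolic windows (Aars, Iars, Tars and Yars), 1 of the 2 for both compartments (Gars) and 0 of the 14 mitochondrial windows, against 4.11% of 17492 protein-coding genes. A match from each of these genes is shown with 10 bases on each side, on the strand of the gene, with the matching letters in capitals. The capitals are the searched letters in Yars and their reverse complement in the others.
Aars, chr8:111033840-111033868, plus strand: agcgggtcacTTTTCATCAgagcgctctg
Gars, chr6:55037960-55037988, plus strand: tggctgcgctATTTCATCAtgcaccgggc
Iars, chr13:49682126-49682154, plus strand: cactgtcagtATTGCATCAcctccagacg
Tars, chr15:11399656-11399684, minus strand: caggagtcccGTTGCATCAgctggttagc
Yars, chr4:129189896-129189924, plus strand: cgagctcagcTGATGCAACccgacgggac
The match began 31 bases before the RefSeq start in Gars and 16 in Tars, and it began 8 bases after the start in Aars, 6 in Iars and 3 in Yars.

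The other letters searched, on both strands, gave further differences in count between the classes. GCATGCG, the core of the element bound by NRF1, was in 5 of the 14 mitochondrial windows (Nars2, Rars2, Vars2, Wars2 and Yars2), 0 of the 12 cytosolic ones, and 4.96% of all windows, while the full NRF1 palindrome, which contains it, was in 0 members and 1.47% of all. CACGTG, the E-box, was in 4 cytosolic windows (Aars, Farsb, Iars and Tars), 1 mitochondrial window (Ears2) and 8.91% of all. CCAAT was in 6 cytosolic and 6 mitochondrial windows, that of Kars and 42.3% of all, and CCGGAAG, an ETS-type motif, in 3 cytosolic and 4 mitochondrial windows, those of Gars and Kars and 12.9% of all. TGACGTCA, the cyclic AMP response element, was in 0 members and 2.54% of all, and TGACGCA in Eprs, Yars and Sars2 and 2.94% of all. These matches describe letters in a window and not binding.

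Synthetase transcripts were divided between the fractions in control cells. Relative to total RNA, 7 members were lower in ribosome-associated RNA, namely the mitochondrial Cars2, Aars2, Vars2, Hars2 and Tars2 and the cytosolic Vars and Cars. Farsb, Hars and Kars were higher. The changes ran from -0.96 to 0.35 on the log2 scale, at an adjusted p under 0.05 (edgeR, quasi-likelihood F test, Benjamini-Hochberg over 14990 genes). The 10 calls were 26.3% of the 38 members, and 25% of all genes tested were called, so the family was called about as often as all genes tested. Of all genes tested, 10% were called higher and 15% lower. DESeq2 called 12 members (28.8% of all genes), among them all 10. Groups that did not overlap were found in 4 members with the ribosome-associated libraries higher (20.6% of all genes) and 16 with them lower (23.5%).

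The largest difference between fractions was in Cars2, which charges mitochondrial transfer RNA for cysteine. It stood at 20.4, 24.4 and 22.8 CPM in the control total libraries (replicates 1, 2 and 3, as in all lists below) and 12.7, 12.02 and 10.4 CPM in the ribosome-associated ones, a log2 fold change of -0.96 (SE 0.12) with adjusted p = 0.00378 in the edgeR test. The 9 other calls had adjusted p of 0.00795 to 0.0462 in the same test. For Cars2, each ribosome-associated library was well below each total library. Aars2, the mitochondrial alanine enzyme, was at 15.5, 16.2 and 17.9 CPM in total and 11.5, 11.1 and 9.54 CPM in ribosome-associated RNA, a log2 fold change of -0.63 (SE 0.12). Vars2, the mitochondrial valine enzyme, went from 19.7, 21.8 and 20.9 to 14.02, 15.7 and 12.4 CPM, a log2 fold change of -0.57 (SE 0.12). For both, the groups did not overlap and the fall was largest in replicate 3.

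Hars2 (mitochondrial histidine) had 38.2, 38.4 and 43.97 CPM in total and 30.95, 26.3 and 30.7 CPM in ribosome-associated control RNA, a log2 fold change of -0.46 (SE 0.11). Tars2 (mitochondrial threonine) had 27.1, 25.1 and 25.7 against 20.97, 17.1 and 19.1 CPM, a log2 fold change of -0.46 (SE 0.11). In each of them the lowest total library was above the highest ribosome-associated one. The same held for the cytosolic valine enzyme Vars, at 100.1, 98.7 and 108 against 69.04, 79.1 and 76.1 CPM with a log2 fold change of -0.46 (SE 0.08), and for the cytosolic cysteine enzyme Cars, at 77.7, 73.4 and 79.3 against 58.6, 61.2 and 57.1 CPM with -0.39 (SE 0.07). Both genes for cysteine and both for valine were thus lower in ribosome-associated RNA.

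The 3 members that were higher in ribosome-associated RNA changed less. Farsb encodes the beta chain of the cytosolic phenylalanine enzyme and rose from 40.5, 42.2 and 40.5 CPM in total to 49.3, 56.5 and 52.5 CPM in ribosome-associated control RNA, a log2 fold change of 0.35 (SE 0.08). Its partner Farsa, the alpha chain, did not pass and was at 53.6, 48.7 and 53.1 against 45.8, 42.6 and 46.7 CPM, a log2 fold change of -0.21 (SE 0.08) with adjusted p = 0.114 in the edgeR test. The 2 chains, which form 1 enzyme, thus had differences of opposite sign; the difference between them was not tested. Kars rose from 91.8, 96.05 and 104 to 117, 113 and 128 CPM with a log2 fold change of 0.29 (SE 0.08). Hars rose from 76.2, 75.8 and 76.5 to 97.5, 88.6 and 91.4 CPM with a log2 fold change of 0.27 (SE 0.08), whereas Hars2, its mitochondrial counterpart and neighbour on the opposite strand, fell.

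**Figure D2:**
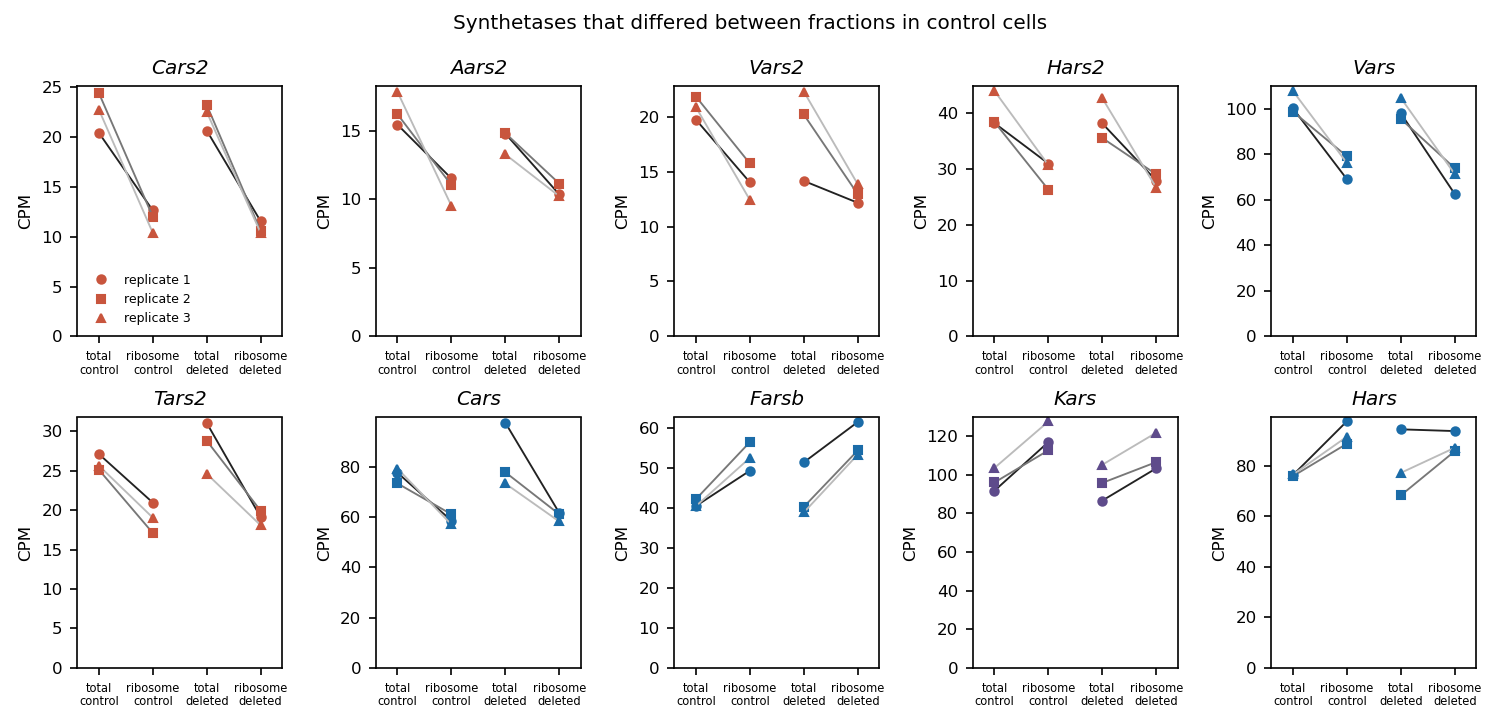
CPM of the 10 synthetases that differed between fractions in control cells, from 0, 1 point per library, with a line from the total to the ribosome-associated library of each culture. In control cells Cars2 falls from 20.4 to 24.4 CPM to 10.4 to 12.7 CPM, and Farsb, Kars and Hars rise in each culture.

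How firmly these calls stood was examined with 1 library left out at a time, without a replicate block and with fewer libraries in 1 group. Cars2, Aars2 and Vars kept their calls with each of the 6 control libraries left out in turn. Cars lost its call without total control replicate 1 (adjusted p = 0.0537 in the edgeR test) and Vars2 without total control replicate 2 (0.0604). Hars2 lost it in 3 of the 6 fits, Farsb in 4, Tars2 and Hars in 5, and Kars in all 6, with adjusted p up to 0.164. No direction changed in these fits. Cars, Vars2, Hars2, Farsb, Tars2, Hars and Kars were all called with the block and without the first pair, beside 49.2% of all genes. That fit was chosen after seeing the data. Between the fractions of all 6 control libraries, 18 macrophage markers had a median log2 fold change of 0.52 and 10 fibroblast markers one of 0.03. Of the macrophage markers 0 were called without the block, and with it 14 were higher, beside 24.3% of all genes. The part of these cell types in the synthetase differences was not tested.

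Both fractions of a culture came from 1 suspension, and with a replicate block for it 5 members were higher (24.3% of all genes) and 14 lower (25.9%). That was 50% of the 38, against 50.2% of all genes called by the same test. All 10 calls above were among these 19. The block added Dars (0.20) and Sars (0.24) to the higher members. It added Iars2 (-0.37), Iars (-0.32), Wars2 (-0.30), Lars (-0.28), Aars (-0.25), Mars (-0.21) and Farsa (-0.21) to the lower ones, all values being log2 fold changes. Of the 17 mitochondrial genes, 7 were then lower and 0 higher, and of the 19 cytosolic genes 7 were lower and 4 higher. Members without a call in either fit included Eprs, Gars, Nars, Qars, Rars, Tars, Tarsl2, Wars and Yars, and the mitochondrial Ears2, Fars2, Lars2, Mars2, Nars2, Pars2, Rars2, Sars2 and Yars2, with log2 fold changes between -0.22 (Sars2) and 0.27 (Fars2).

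By class, the median log2 fold change of ribosome-associated against total control RNA was -0.09 for the cytosolic and -0.15 for the mitochondrial genes, beside 0.02 for all genes tested. The 7 complex members classed as cytosolic had a median of -0.16 and the 12 cytosolic genes outside the complex one of -0.02. Kars, also of the complex but classed under both compartments, is not in that median and was at 0.29. Within the 14 pairs, the mitochondrial gene had the lower log2 fold change in 10, and in 8 pairs this held in each of the 3 cultures. In 0 of these 14 pairs did the opposite hold in each culture. The widest gap was in histidine, where Hars2 minus Hars was -0.77 to -0.66 on the log2 scale in the 3 cultures. The other pairs of this kind included those for cysteine, serine, threonine, tryptophan, alanine and arginine. Outside the 14 pairs, Pars2 (0.12) and Ears2 (-0.11) had higher log2 fold changes than Eprs (-0.16). Fars2 (0.27) lay between Farsa (-0.21) and Farsb (0.35). Pairs share libraries and are not replicates, so no test was made over them.

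**Figure D3:**
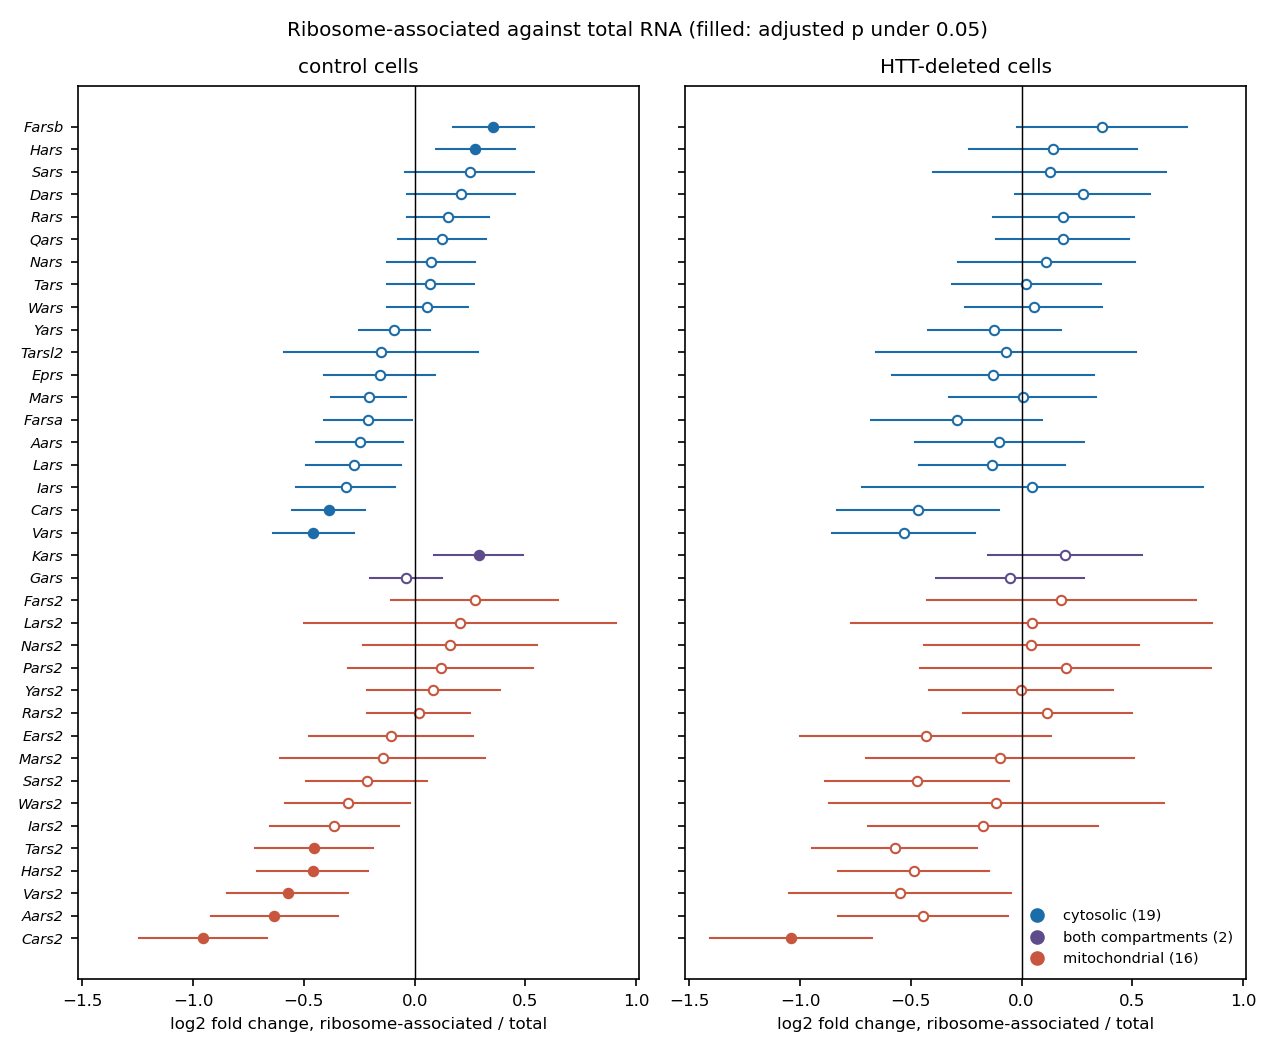
log2 fold change of ribosome-associated against total RNA for 37 of the 38 synthetases in control and HTT-deleted cells, with 95% intervals from the edgeR fit; filled points passed an adjusted p under 0.05. In control cells 3 are filled to the right and 7 to the left, and in HTT-deleted cells Cars2 alone is filled, at -1.04.

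In HTT-deleted cells, 1 member differed between the fractions. Cars2 stood at 20.7, 23.3 and 22.5 CPM in total and 11.6, 10.6 and 10.4 CPM in ribosome-associated RNA, a log2 fold change of -1.04 (SE 0.15) with adjusted p = 0.0395 in the edgeR test and no overlap of the groups. This was 1 of 38 members, against 0.896% of the 14627 genes tested. In edgeR the call was lost with the replicate block (adjusted p = 0.0658), where 0 members and 0.663% of all genes were called. DESeq2 called 4 members lower, Cars2, Tars2, Vars and Hars2, and 5.92% of all genes. At an unadjusted p under 0.05, 8 members and 12.2% of all genes passed in edgeR without the block.

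This comparison turned on total HTT-deleted replicate 1. Without that library, 8 members were called (19.9% of all genes), with Cars2 (-1.08), Vars2 (-0.71), Vars (-0.54), Hars2 (-0.49), Tars2 (-0.49), Iars2 (-0.37) and Cars (-0.33) lower and Farsb (0.51) higher on the log2 scale. Of these 8, 7 were among the 10 called in control cells, which is 87.5% of the former and 70% of the latter list. With the block and without the first pair, 24 members were called, 9 higher and 15 lower, against 55.6% of all genes (27.7% higher and 27.9% lower). Of these 24, 17 were among the 19 called with the block in control cells, which is 70.8% of the 24 and 89.5% of the 19, and all 17 had the same direction. The 2 comparisons have no library in common, but their cultures were not independent. Within a fraction, the deviations of a control culture correlated across genes with those of its HTT-deleted counterpart, at 0.227 to 0.703. The fit with the block and without the first pair was chosen after seeing the data. The overlap of calls over all genes was not computed, so whether the synthetases overlapped more than other genes was not tested. Without any 1 of the 5 libraries other than total HTT-deleted replicate 1, 0 members were called.

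Total HTT-deleted replicate 1 was the highest of the 6 total libraries in 15 of the 38 members and the lowest in 13. Among the high ones, Sars was at 329.9, 231 and 208 CPM, Cars at 97.6, 77.9 and 73.4 CPM and Eprs at 376, 337 and 272 CPM in the total HTT-deleted libraries, and the log2 fold change of Sars for Htt deletion was 0.24 with and -0.01 without that library. Among the low ones, Iars, the cytosolic isoleucine enzyme, was at 57.7, 138 and 135 CPM in the total HTT-deleted libraries, so that replicate 1 lay below each of the 11 other libraries, whose values ran from 97.2 to 141 CPM. Iars2 was at 44.4, 72.6 and 73.4 CPM and Wars2, the mitochondrial tryptophan enzyme, at 6.41, 14.03 and 14.04 CPM in the same 3 libraries. For Iars, Iars2 and Wars2 the ribosome-associated library of the same culture was not low, at 115 CPM for Iars, 60.8 CPM for Iars2 and 11.3 CPM for Wars2.

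The annotation of the members that differed between fractions was compared next. In GENCODE M21, the 7 lower members have 3 to 8 transcripts each that are annotated as retaining an intron, against 1 in each of the 3 members that were higher and 0 to 12 in the 28 that were not called. Over 13254 protein-coding genes tested, the median log2 fold change was 0.13 with 0 such transcripts, 0.04 with 1 to 2, -0.15 with 3 to 5 and -0.41 with 6 or more, and 7.73, 12.4, 25.7 and 46.8% of genes in these bins were called lower. The members with 6 or more were Vars and Vars2, called lower, and Eprs and Qars, not called. Of the members with 3 to 5, 5 were called lower and 10 were not called. Iars2 and Wars2, lower in control cells with the block, have 1 such transcript each. The median number was 4 over the cytosolic and 2 over the mitochondrial genes. Principal transcripts were 1902 to 4425 bases long in the 7 lower members and 1989 to 2036 bases in the 3 higher ones. With the block and each library's trend with transcript length removed, all 10 kept their calls, Cars2 at -1.08 and Farsb at 0.25, while the cytosolic median moved from -0.09 to 0.02. Of the further calls made with the block, Aars, Iars2, Wars2 and Dars lost theirs with the length trend removed. Mars2 turned from -0.15 to a called rise of 0.48, and Tars (higher) and Sars2 (lower) were called as well. Mars2 has the longest principal transcript of the members, 11294 bases, at the end of the length trend. It was not called in control cells in any fit without that trend removed. Reads in no annotated feature were 6.94 to 7.73% in total and 2.64 to 3.30% in ribosome-associated libraries; their part in these differences was not tested.

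Deletion of Htt gave no called change in the family. In total RNA, 0 of the 38 members passed an adjusted p under 0.05 in edgeR's quasi-likelihood test, against 0% of the 14759 genes tested. Htt itself was not called by this test, in which the lowest adjusted p of any gene was 0.812. In the authors' deposited table Htt had a false discovery rate of 3.98e-39 in total RNA. The test thus missed the targeted gene, so 0 calls do not show that the members were unchanged. At an unadjusted p under 0.05 there were 0 members too (0.298% of all genes), and DESeq2 called 0 members and 0.0203% of all genes. With the block and without the first pair of cultures, edgeR called 0 members and 0.629% of all genes (0.522% higher and 0.107% lower). The median log2 fold change was 0.05 for the cytosolic and -0.02 for the mitochondrial genes, beside 0.01 for all genes. For 27 of the 38 members the 95% interval lay within a 1.5-fold change either way. The 11 with wider intervals were Wars2, Fars2, Eprs, Iars2, Tarsl2, Ears2, Lars2, Iars, Pars2, Mars2 and Sars, whose intervals also hold changes beyond 1.5-fold.

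The 5 members with the smallest p in total RNA were Lars2, Mars, Iars2, Ears2 and Aars2, each with an adjusted p of 0.978 in edgeR. Lars2 had a log2 fold change of 0.45 (SE 0.33) with a 95% interval from -0.34 to 1.24, and of 0.30 without total HTT-deleted replicate 1, with its values given below. Mars, the cytosolic methionine enzyme of the complex, was at 94.8, 92.2 and 90.9 CPM in control and 72.9, 84.98 and 86.7 CPM in HTT-deleted cells, a log2 fold change of -0.16 (SE 0.12), and of -0.10 without total HTT-deleted replicate 1. Aars2 was at 15.5, 16.2 and 17.9 against 14.8, 14.8 and 13.3 CPM, a log2 fold change of -0.17 (SE 0.16), and of -0.22 without that library. Only in these 2 of the 38 did the total groups not overlap, with HTT-deleted cells lower, and 4.21% of all genes had such groups, 1.61% with HTT-deleted cells higher and 2.6% with them lower. Iars2 was at 82.4, 74.8 and 72.9 against 44.4, 72.6 and 73.4 CPM, -0.25 (SE 0.20) on the log2 scale, and -0.06 without total HTT-deleted replicate 1. Ears2, the mitochondrial glutamate enzyme, was at 7.54, 8.36 and 8.38 against 11.9, 7.31 and 9.73 CPM, 0.29 (SE 0.24) on the log2 scale, and 0.09 without that library. For the last 2 the groups overlapped, with total HTT-deleted replicate 1 the lowest of the 6 total libraries in Iars2 and the highest in Ears2.

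Iars shows how far 1 library reached. Its log2 fold change in total RNA was -0.28 (SE 0.31), and 0.02 (SE 0.07) without total HTT-deleted replicate 1. In the authors' deposited table, Iars had the lowest false discovery rate of any synthetase in total RNA, 0.0799, with a log2 fold change of -0.37. No member had a false discovery rate under 0.05 in that table, where 844 of 16974 genes in total RNA and 683 of 16235 in ribosome-associated RNA did.

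In ribosome-associated RNA, Htt deletion again gave 0 called members of 38, against 0% of the 14588 genes tested. Htt itself was not called in this edgeR test either. At an unadjusted p under 0.05 there were 0 members and 0.754% of all genes, and DESeq2 called 0 members and 0.00686% of all genes. With the replicate block, 0 members and 1.69% of all genes were called (1.46% higher and 0.233% lower), and without the first pair 0 members and 0.0944% (0.0741% higher and 0.0202% lower). The median was 0.07 for the cytosolic genes, -0.04 for the mitochondrial ones and 0.00 for all genes. The 95% interval lay within a 1.5-fold change for 36 of the 38, the exceptions being Lars2 and Pars2. In the authors' deposited table the lowest false discovery rate of a synthetase in this fraction was 0.491, for Eprs.

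The smallest p in ribosome-associated RNA belonged to Lars, Eprs, Aars, Sars2 and Vars, with an adjusted p of 1 in edgeR. Lars, the cytosolic leucine enzyme, was at 89.2, 108 and 100.3 CPM in control and 120.2, 111 and 101 CPM in HTT-deleted cells, a log2 fold change of 0.16 (SE 0.11). Eprs was at 239, 298 and 254 against 341, 311 and 255 CPM, 0.20 (SE 0.14) on the log2 scale, and Aars at 209.8, 227 and 214 against 257, 254 and 209.7 CPM, 0.15 (SE 0.11). In these 3 the groups overlapped, and the gap between same-numbered cultures was widest in replicate 1, the culture whose control library had the gap of 0.33 towards short transcripts. Without that library the log2 fold changes were 0.10 for Lars, 0.14 for Eprs and 0.13 for Aars. Without ribosome-associated HTT-deleted replicate 3 they were larger, at 0.23, 0.31 and 0.24, again with 0 members called. Vars was at 69.04, 79.1 and 76.1 against 62.5, 73.8 and 71.3 CPM, -0.11 (SE 0.10) on the log2 scale, also with overlap. Sars2, the mitochondrial serine enzyme, was at 8.75, 8.62 and 8.86 against 7.75, 8.31 and 7.52 CPM with a log2 fold change of -0.15 (SE 0.13). It alone of the 38 had groups that did not overlap, and 5.44% of all genes had such groups, 2.63% with HTT-deleted cells higher and 2.82% with them lower.

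**Figure D4:**
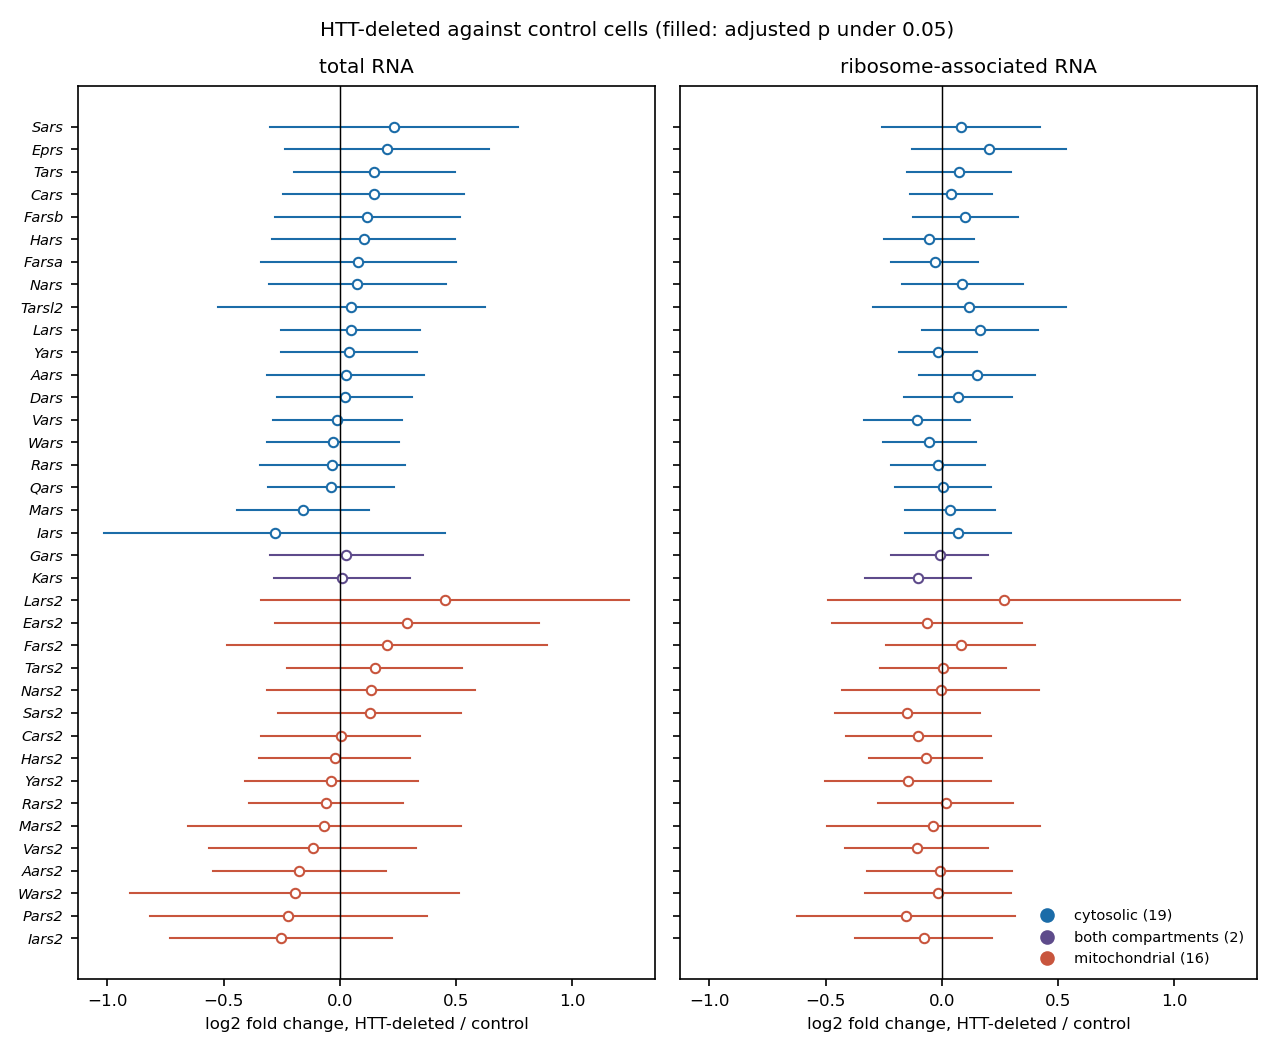
log2 fold change of HTT-deleted against control cells for 37 of the 38 synthetases in total and ribosome-associated RNA, with 95% intervals from the edgeR fit; none passed an adjusted p under 0.05. The interval crosses 0 for all 37 in both fractions, and Lars2 has the widest in ribosome-associated RNA, from -0.49 to 1.03.

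The cultures also differed in their macrophage markers, which stood higher in HTT-deleted cells. The median log2 fold change of the 18 markers for Htt deletion was 0.89 in total and 0.72 in ribosome-associated libraries, with 18 of 18 above 0 in each. Without the block 0 of 18 passed the edgeR test in either fraction. With it 10 of 18 rose in the ribosome-associated fraction, beside 1.46% of all genes. In total RNA 0 of 18 were called with the block. Their summed level was 807 to 3306 CPM in total control, 1842 to 7603 CPM in total HTT-deleted, 1221 to 5002 CPM in ribosome-associated control and 2845 to 8607 CPM in ribosome-associated HTT-deleted libraries. Their part in the synthetase values was not tested. In bulk RNA, fewer cells of a type and less RNA per cell cannot be told apart.

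Whether Htt deletion altered the share of a transcript found with ribosomes was asked with an interaction term, and no member was called. The term, fitted over all 12 libraries, gave 0 of 38 calls (0% of 15574 genes) in edgeR, 0 at an unadjusted p under 0.05 (0.546% of all genes) and 0 in DESeq2. The median was 0.03 for the cytosolic, -0.02 for the mitochondrial and 0.01 for all genes. The smallest p, adjusted to 1 in edgeR, belonged to Mars at 0.22 (SE 0.14), Sars2 at -0.25 (SE 0.17), Ears2 at -0.32 (SE 0.28), Aars2 at 0.19 (SE 0.18) and Iars at 0.36 (SE 0.36) on the log2 scale. Without total HTT-deleted replicate 1 the log2 values were 0.15 for Mars, -0.19 for Sars2, -0.13 for Ears2, 0.23 for Aars2 and 0.07 for Iars. With the block and without the first pair they were 0.09, -0.20, -0.12, 0.34 and -0.03 in the same order, with 0 members called in either fit. The interaction value of Cars2 was -0.08 (SE 0.18), beside -0.96 in control and -1.04 in HTT-deleted cells for the fraction difference itself. The interval lay within a 1.5-fold change for 26 of the 38, and in the 12 others it also held larger changes.

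Lars2 varied more between replicates than any of the 37 other members. Its SD within groups was 0.47 on the log2 CPM scale, beside a median of 0.12 over the 38, and Iars followed with 0.37. Lars2 was at 172, 353 and 365 CPM in total control, 466, 419 and 302 in total HTT-deleted, 335, 297 and 394 in ribosome-associated control and 309, 629.9 and 294 in ribosome-associated HTT-deleted libraries. The low extreme was total control replicate 1 and the high extreme ribosome-associated HTT-deleted replicate 2, 3.66 times apart, with overlap of all 4 groups. The 16 other mitochondrial synthetases together moved between 239 and 316 CPM over the same libraries. Lars2 made up 5.71 to 18.3% of the synthetase counts of a library.

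Among 13955 genes with at least 1 CPM in 3 or more libraries, the one whose level followed Lars2 most closely was Gm42418, a noncoding locus known to overlap a ribosomal RNA repeat. The measure was the SD of the log2 ratio to Lars2 over the 12 libraries, which was 0.14 for Gm42418, 0.24 for Gm28529 and 0.26 for Gm23935. Gm42418 ran from 1129 to 4787 CPM, and Lars2 was 13.2 to 18.9% of it in each of the 12 libraries. The Lars2 and Gm42418 values come from the same libraries, and this pattern was picked out after the values were seen. The principal Lars2 transcript, 3894 bases long, shares 22 runs of 31 bases, within its bases 3278 to 3329, with an annotated transcript of Gm15564, which was at 0.4 to 4.4 CPM, and 0 such runs with Gm42418. Other transcripts of Lars2, whose exons cover 11089 bases in all, were not compared. The part of ribosomal RNA reads in the Lars2 counts was not tested. Without Lars2, the mitochondrial median of ribosome-associated against total control RNA was -0.18 in place of -0.15.

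**Figure D5:**
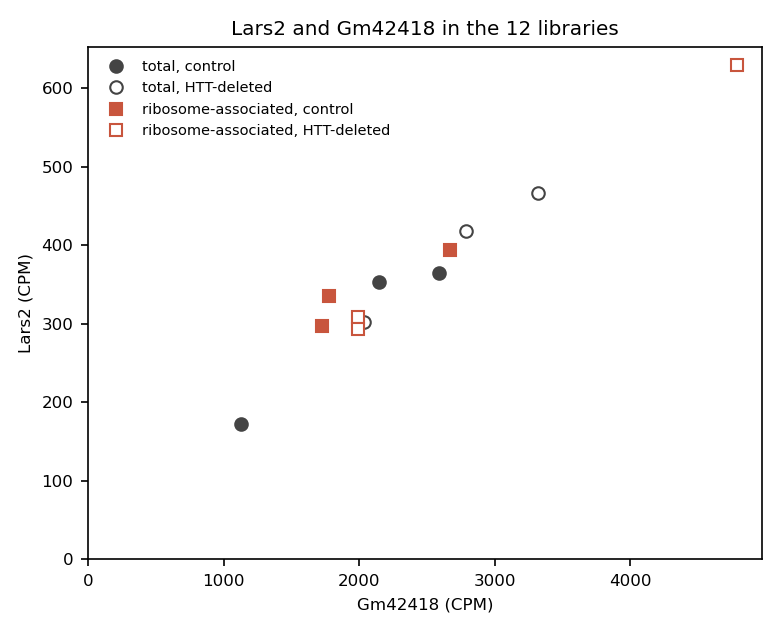
Lars2 CPM against Gm42418 CPM in the 12 libraries, both axes from 0, marked by fraction and genotype. The points rise together from total control replicate 1, at 172 and 1129 CPM, to ribosome-associated HTT-deleted replicate 2, at 630 and 4787 CPM.

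Partners of the synthetases were followed in the same comparisons. Of 13 listed partner genes, 12 were tested. In control cells 3 were higher in ribosome-associated RNA, the complex scaffolds Aimp1 (log2 fold change 0.40, SE 0.09) and Eef1e1 (0.51, SE 0.11) and Gatc (0.51, SE 0.11), a subunit of the mitochondrial amidotransferase that makes glutaminyl-tRNA. Lower were 2 of them, Mtfmt (-0.52, SE 0.12), which formylates the mitochondrial initiator transfer RNA, and Sepsecs (-0.52, SE 0.11), which makes selenocysteinyl-tRNA. Their median was 0.21, and 10% of all genes were higher and 15% lower in this test. With the block 6 partners were higher and 4 lower, beside 24.3% and 25.9% of all genes. For Htt deletion 0 of the 12 were called in either fraction, also at an unadjusted p under 0.05. Between the fractions of HTT-deleted cells 0 were called and 1, Gatc, had an unadjusted p under 0.05. Aimp2, the third scaffold, was at 0.32 (SE 0.13) and did not pass without the block.

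The listed ATF4 targets outside the family cover amino acid synthesis, amino acid transport and the stress response. Htt deletion moved 0 of the 25 past the threshold in either fraction without the block, with medians of 0.14 in total and 0.03 in ribosome-associated RNA. At an unadjusted p under 0.05 there was 1, Cebpb in ribosome-associated RNA, and with the block Cebpb alone of the 25 was called there, as lower. At an unadjusted p under 0.05 in that blocked edgeR fit, Trib3 (0.28), Slc7a11 (0.37), Phgdh (0.16) and Cth (0.42) were higher. These are log2 fold changes, and 1471 of all 14588 genes had such a p. In control cells 4 of the 25 were higher in ribosome-associated than in total RNA, namely Ddit4, a stress-induced inhibitor of mTORC1 signalling (log2 fold change 0.41, SE 0.07), the transcription factor Cebpb (0.51, SE 0.15), Psat1, an enzyme of serine synthesis (0.44, SE 0.10), and Mthfd2, a mitochondrial folate enzyme (0.38, SE 0.10). Their median was 0.17 and 0 of the 25 were lower, beside 10% of all genes higher and 15% lower in this test. With the block 9 of the 25 were higher and 0 lower, beside 24.3% and 25.9% of all genes. Of the 5 synthetases with the TGATGNAAN letters shown above, Aars, Iars, Tars, Yars and Gars, 0 were called in any of the 5 comparisons in edgeR without the block, with all libraries and filterByExpr. Aars and Iars were lower in ribosome-associated control RNA in DESeq2, with the block in edgeR, and with the filter at 5 CPM in 3 libraries, and Iars also without ribosome-associated control replicate 3.

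Counting limits some members. Exons of 14 members overlap those of a gene on the other strand, with the kit marking strand and the strand setting of the counting not given in the sources used here. Hars and Hars2 share 195 bases with each other, 7.97% of the exonic bases of Hars and 4.56% of those of Hars2. Overlap with a gene on the other strand covered 5.83% of Cars2, 8.52% of Vars2, 9.47% of Farsb and 24.2% of Iars2. On the same strand, 14.3% of the exonic bases of Aars overlap Exosc6. Mars overlaps Ddit3, itself a listed ATF4 target, over 1.99% of its exonic bases on the opposite strand.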

How the data were processed

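The authors deposited unnormalised gene counts for each of 12 libraries, made with STAR 2.7.2b and HTSeq 0.11.1 on GRCm38 (mm10), with FastQC and edgeR also named, per the submitters' processing notes. The annotation release was not given in the sources used here. A second deposited table holds the authors' log2 fold changes, a likelihood ratio score, p-values and false discovery rates per fraction; its name speaks of RUVSeq. Members, classes and gene lists were chosen with earlier results of these data known.

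Here TMM scaling and filterByExpr were applied, and each comparison was fitted over all genes with robust quasi-likelihood in edgeR 4.0.16 (R 4.3.3), Benjamini-Hochberg adjusted, with calls at 0.05. SE is the absolute log2 fold change over the root of F. Levels are CPM on the TMM scale over 12 libraries, with a prior count of 2 on the log2 scale, and RPKM used the longest principal transcript of GENCODE M21. DESeq2 1.42.0 was an alternative, with other scalings, filters, libraries left out, a replicate block and a length trend. The fit was tested on simulated counts. The 5 closing summary entries of each table, among them reads in no feature (2.64 to 7.73%), stayed out of library sizes.

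Replicate numbers were treated as pairing: both fractions of a number come from 1 suspension per the labels, and same-numbered libraries deviated together, with correlations across genes of 0.227 to 0.737 over the 4 comparisons. Named were the members, those called with values in each library, the 5 with the smallest p where none was called, and the 4 highest and 4 lowest levels. Values of 1 member and 1 promoter match are not reported here. Total counts of 16789356 to 30571501 make counting error small for all but the lowest members. No replicates agreed within sampling noise (chi-square per degree of freedom 35.1 to 178).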

Additional observations from a re-analysis of the deposited data

How the results depend on the processing

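For Htt deletion and for its interaction with the fraction, 0 members were called under each alternative run. Class medians near 0 changed sign. In total RNA the cytosolic median was -0.0150 to 0.0989 and the mitochondrial one -0.0543 to 0.0341 with 1 library left out, and the mitochondrial one was 0.0133 with the block and the length trend. With ribosome-associated RNA the cytosolic median was -0.000641 to 0.0664, and for the interaction -0.0480 to 0.0695, with 1 library left out. With the replicate block and without the first pair, an alternative chosen after seeing the data, these cytosolic medians were -0.0109, -0.00360 and 0.00722, Lars2 in total RNA was -0.00608 and Iars in the interaction -0.0326. The cause was not tested.

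Between fractions in control cells, 19 members were called with the replicate block, 18 with the length trend added, 19 with the block without the first pair, 5 in 1 fit of all 12 libraries and 4 to 8 with 1 library left out. Of all 14990 genes, 50.2% were called with the block, and 3929 rose and 3234 fell with the length trend added. With the block and without the first pair, 49.2% of all genes were called. The cytosolic median was 0.0242 with the length trend, -0.0661 without the first pair and -0.110 to -0.0616 with 1 library left out. The mitochondrial median was -0.194 without the first pair, -0.181 without Lars2 (also chosen after seeing the data) and -0.226 to -0.0779 with 1 library left out.

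Between fractions in HTT-deleted cells, DESeq2 called 4 members, the replicate block 0, the block with the length trend 2, 1 fit of all 12 libraries 6, the block without the first pair 24, and fits with 1 library left out 0 to 8, the 8 without total HTT-deleted replicate 1. Of all genes, DESeq2 called 5.92%, the block 0.663% and the block without the first pair 55.6%. With the length trend 47 of 14627 genes rose and 470 fell. Without total HTT-deleted replicate 1, 19.9% of all genes were called. The mitochondrial median was -0.380 without the first pair and -0.264 to -0.0407 with 1 library left out. Of the values of the members picked by the naming rule in each comparison, under alternatives, 349 kept their direction and call, 38 kept the direction and lost the call, and 2, those of Lars2 and Iars above, turned. Members outside that rule turned too, such as Iars and Sars in total RNA without total HTT-deleted replicate 1, at 0.02 and -0.01. Apart from the counts above, the block changed no call of Htt deletion among the members.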
